A study of Mus musculus with 18 samples.

Results

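The 10 imprinted growth genes H19, Dlk1, Meg3, Peg3, Peg10, Mest, Grb10, Plagl1, Ndn and Zdbf2 were followed through 18 bulk poly(A) RNA libraries of mouse nerve tumours and nerve. They were taken by gene symbol from a table of 51290 genes, and all 10 were found there. The 6 MPNST libraries (malignant peripheral nerve sheath tumour) came from PostnCre+ mice with the alleles Nf1 flox/flox and Arf flox/flox. The 6 libraries of plexiform neurofibroma, a benign nerve tumour, came from the trigeminal nerve of Nf1 flox/flox PostnCre+ mice. The 6 normal nerve libraries came from the trigeminal nerve of Nf1 flox/flox PostnCre- mice. Floxed Nf1, the gene of the RAS inhibitor neurofibromin, was thus shared by all 3 groups, and only the PostnCre+ groups carried a Cre recombinase under the Postn promoter, which acts only in cells that use that promoter. Arf, a tumour suppressor transcript of the Cdkn2a locus, was floxed in the MPNST group alone. The labels give no age for any animal and no body site for MPNST, and they place the neurofibroma and nerve samples in another series, so that malignancy, site and series of origin cannot be told apart in a comparison with MPNST. Nothing in the labels says which samples came from separate animals, so p-values measure the spread between these samples.

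An imprinted gene is read mainly from the chromosome of one parent, usually through DNA methylation marks that differ between the copies from egg and sperm. Many imprinted genes act on growth before birth, sit in clusters under a shared control region and are switched down in most tissues after birth. Adult muscle, the adrenal medulla, the pituitary and neurons are among the places where some of them stay on, and imprinted transcripts are often altered in tumours.

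The libraries differed in tissue content in ways that touch these genes. Totals were 13886399 to 23652959 estimated counts in MPNST, 15307987 to 20056513 in neurofibroma and 14303986 to 20335697 in nerve. Transcripts of 22 sensory neuron markers summed to 52.2 to 128 CPM, counts scaled to a common library total, in MPNST 1 to 5 and 5979 CPM in MPNST 6, against 12715 to 16716 CPM in neurofibroma and 11331 to 19910 CPM in nerve. Scn10a, the sodium channel of pain neurons, stood at 0.105 CPM in MPNST 6 and at no more than 1.14 CPM in any MPNST library, against 392 to 719 CPM in neurofibroma and 259 to 805 CPM in nerve. In MPNST 6, 12 sympathoadrenal markers summed to 5222 CPM, against 30.9 CPM at most in the other MPNST libraries. MPNST 6 also held 4159 CPM of 8 pancreatic acinar markers, against 29.6 CPM at most in the others. MPNST 3 held 54486 CPM of 14 skeletal muscle markers, and MPNST 2 held 382485 CPM of 8 salivary gland markers, which lowers the CPM of its other genes (TMM factor 0.436). Nerve 6 stood apart within its group, with 4045 CPM of 8 meninges and choroid plexus markers and 2669 CPM of 12 oligodendrocyte and astrocyte markers, against at most 454 and 1073 CPM in nerve 1 to 5. Transcripts of 14 Schwann lineage markers summed to 161 to 2311 CPM in MPNST, 14665 to 24714 CPM in neurofibroma and 5857 to 16443 CPM in nerve. In such bulk libraries, fewer cells of a type and less RNA per cell cannot be told apart.

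A single MPNST library held most of the high values. MPNST 6 was the highest of its group for 7 of the 10 genes, namely Dlk1, Meg3, Peg3, Peg10, Plagl1, Ndn and Zdbf2. Nerve 6 was the highest nerve library for 5 of the 10, namely Dlk1, Peg10, Grb10, Ndn and Zdbf2. The summed level of all 10 genes was 56.7 to 2119 CPM in MPNST 1 to 5 and 6625 CPM in MPNST 6, against 1179 to 1846 CPM in neurofibroma and 1342 to 3408 CPM in nerve. A gene was called changed at a Benjamini-Hochberg adjusted p below 0.05 in edgeR's quasi-likelihood test over all genes that passed a filter on low counts. Of the 10 genes, 3 were called between MPNST and neurofibroma (H19 and Dlk1 higher, Peg3 lower), where 42.0% of all 16537 tested genes were called (25.3% higher and 16.8% lower). Between MPNST and nerve, 2 of the 10 were called (H19 higher, Peg3 lower), where 46.0% of 16384 genes were called (27.6% higher and 18.4% lower). Both shares lie below those of all tested genes. The median log2 change of the 10 genes was 1.44 for MPNST versus neurofibroma and 1.06 for MPNST versus nerve, beside 0.22 and 0.22 over all tested genes. Without MPNST 6 both medians turned, to -0.45 for MPNST versus neurofibroma and -1.45 for MPNST versus nerve, beside 0.18 and 0.17 over all tested genes. The MPNST libraries are common to these comparisons, so their calls are not independent of each other.

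**Figure D1:**
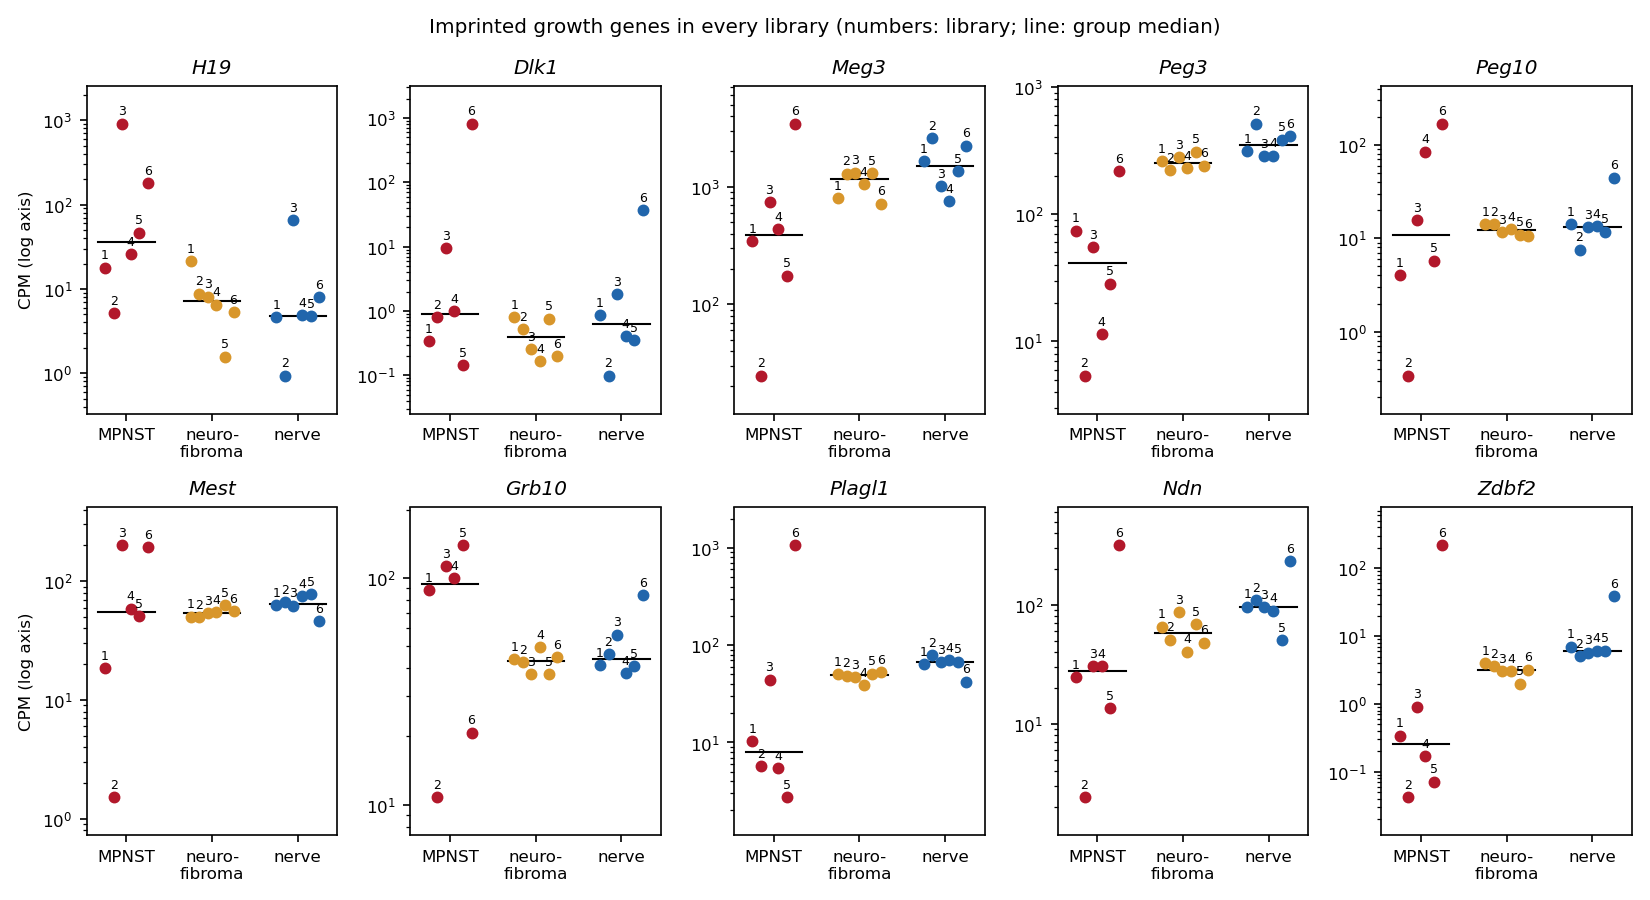
Level of each imprinted growth gene in CPM (log axis) in the MPNST, neurofibroma and nerve libraries; each point is 1 library with its number and each line a group median. MPNST 6 stands far above MPNST 1 to 5 for Dlk1 (810 CPM), Plagl1 (1064 CPM) and Zdbf2 (217 CPM), and H19 is highest in MPNST 3 (908 CPM).

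H19, a maternally expressed long noncoding RNA that is abundant in the embryo and stays on in skeletal muscle, rose in MPNST against each of the other groups. It was measured at 17.9, 5.12, 908, 25.9, 46.4 and 180.0 CPM in MPNST 1 to 6. The lowest, median and highest values were 1.57, 7.29 and 21.3 CPM in neurofibroma and 0.934, 4.81 and 65.5 CPM in nerve. MPNST 3 and 6 lay above every neurofibroma and nerve library, MPNST 4 and 5 above every neurofibroma library only, and MPNST 1 and 2 within the range of both groups. The log2 change was 4.78 against neurofibroma (SE 1.23, adjusted p = 0.00892) and 4.02 against nerve (SE 1.38, adjusted p = 0.0317; edgeR). Without MPNST 3 the change was 2.66 against neurofibroma (SE 0.76, adjusted p = 0.0162) and 1.94 against nerve, which was not called (adjusted p = 0.145). The call against nerve was also lost when nerve 1, 2, 4, 5 or 6 was left out (adjusted p of 0.0559 to 0.0661, changes of 3.76 to 3.88), while without nerve 3 the change was 5.66. The count columns of the table come as 9 and 9, with 3 libraries of each group in both, which no label explains: in the first 9 (MPNST 1, 2 and 4) the change of H19 was 0.60 against neurofibroma and -0.32 against nerve, neither called, and in the last 9 (MPNST 3, 5 and 6) 6.68 and 6.17, both called. With this split as a covariate neither call was kept (3.63, adjusted p = 0.0879, against neurofibroma and 2.99, adjusted p = 0.241, against nerve).

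The highest H19 library of each group was also the one with most skeletal muscle transcripts. Summed over 14 muscle markers, MPNST 3 had 54486 CPM, against 2.75 to 17.7 CPM in the other MPNST libraries. Neurofibroma 1 had 1934 CPM, against 39.1 to 67.3 CPM in the others of its group, and nerve 3 had 510 CPM, against 43.6 to 105 CPM. Nctc1, a noncoding RNA of the H19 cluster known from mouse muscle, was read at 39.3 CPM in MPNST 3, at 3.04 CPM in neurofibroma 1 and at 0.831 CPM in nerve 3, and at no more than 0.0676 CPM in any other library. H19 in MPNST 6 was 180.0 CPM with 5.97 CPM of muscle markers, 7 of the 14 being at 0 there. With MPNST 2, 3 and 6 all left out, H19 was called higher than in neurofibroma (1.73, SE 0.62, adjusted p = 0.0336), and was not called against nerve (0.97, SE 1.05, adjusted p = 0.441). Muscle content as a source of H19 was not tested beyond these values.

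**Figure D2:**
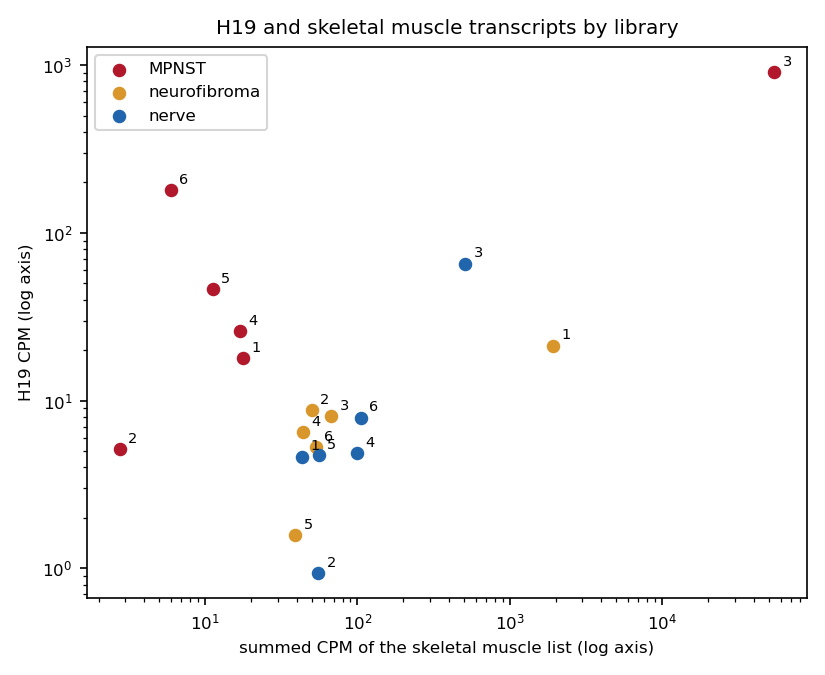
H19 (CPM, log axis) against the summed CPM of 14 skeletal muscle markers (log axis) in the 18 libraries, coloured by group and numbered by library. MPNST 3, neurofibroma 1 and nerve 3 are the highest of their groups on both axes, while MPNST 6 has 180.0 CPM of H19 beside 5.97 CPM of muscle markers.

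Dlk1, a paternally expressed Delta-like membrane protein that holds back fat cell formation and is made in the adult adrenal medulla and pituitary, was read at under 1 CPM in most libraries. Its level was 810 CPM in MPNST 6 (15461 counts) and 9.55 CPM in MPNST 3 (136 counts), and 0.144 to 0.988 CPM in MPNST 1, 2, 4 and 5. The lowest, median and highest values were 0.165, 0.388 and 0.798 CPM in neurofibroma (3 to 16 counts) and 0.0983, 0.636 and 37.1 CPM in nerve, the last of these in nerve 6 (567 counts). MPNST 6 alone held 98.6% of the Dlk1 CPM summed over its group, and nerve 6 held 91.2% of that of nerve. Dlk1 rose in MPNST against neurofibroma by a log2 change of 8.15 (SE 2.21, edgeR adjusted p = 0.0118), and the value without MPNST 6 was 2.79 (SE 0.99, adjusted p = 0.0324). Without MPNST 2, 3 and 6 it was 0.09 (SE 0.67, adjusted p = 0.916), and with the column split as a covariate it was 5.40 (SE 2.67, adjusted p = 0.128), so that the call was lost in both, as it was in limma-voom with quality weights (1.01, SE 1.04, adjusted p = 0.424). Against nerve the change was 4.30 (SE 2.19, adjusted p = 0.125), -1.05 without MPNST 6 (adjusted p = 0.574) and 7.48 without nerve 6 (adjusted p = 0.0307), so that the direction depended on a single library. The promoter of Dlk1 is shown because Dlk1 was called in MPNST while nearly silent in most libraries, and it has no capitals because it holds neither of the motifs searched below. It lies at chr12:109452573-109452872 on the + strand of GRCm38.p6 (RefSeq), 250 bases before to 50 after the start.
Dlk1 promoter: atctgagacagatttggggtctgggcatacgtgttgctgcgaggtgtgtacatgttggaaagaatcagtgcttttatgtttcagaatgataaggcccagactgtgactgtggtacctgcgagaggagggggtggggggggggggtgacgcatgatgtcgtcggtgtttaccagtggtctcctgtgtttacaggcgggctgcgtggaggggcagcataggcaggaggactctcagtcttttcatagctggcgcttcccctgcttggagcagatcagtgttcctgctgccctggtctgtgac

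Meg3 is the maternally expressed long noncoding RNA of the same cluster as Dlk1. Its CPM was lower in MPNST 1 to 5 than in every nerve library and, like that of Dlk1, highest in MPNST 6. When libraries were scaled by TMM factors, MPNST 3 (806 CPM) lay above the lowest nerve library (736 CPM in nerve 4). Meg3 was measured at 346, 24.7, 742, 436, 176 and 3435 CPM in MPNST 1 to 6. The lowest, median and highest values were 719, 1174 and 1316 CPM in neurofibroma and 758, 1506 and 2582 CPM in nerve. MPNST 1, 2, 4 and 5 lay below every neurofibroma library as well, MPNST 3 lay within the neurofibroma range, and MPNST 6 lay above all libraries of both groups. The log2 change was -0.32 against neurofibroma (SE 0.73, adjusted p = 0.743) and -0.91 against nerve (SE 0.76, adjusted p = 0.346), and neither was called. Without MPNST 6, Meg3 was called lower against neurofibroma (-1.48, SE 0.52, adjusted p = 0.0324) and against nerve (-2.06, SE 0.59, adjusted p = 0.0113; edgeR). Rian, a maternal noncoding RNA downstream of Meg3, was measured at 7.74 to 175 CPM in MPNST 1 to 5 and at 2145 CPM in MPNST 6, against 362 to 521 CPM in neurofibroma and 496 to 693 CPM in nerve. Rtl1, a paternally expressed retrotransposon-derived gene of the same cluster, was 242 CPM in MPNST 6 and 4.45 CPM in nerve 6, and at most 0.351 CPM in any other library. It did not pass the filter on low counts. Rtl1 overlaps antisense transcripts and its strand of counting is not given in the sources used here, so its reads are uncertain.

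Peg3, a paternally expressed zinc finger protein known for effects on growth and maternal behaviour, fell in MPNST against both other groups. Its 6 MPNST libraries all lay below every neurofibroma and nerve library. Snrpn and Adam23, described below, did so too, and the share of all tested genes that did so was not counted. Peg3 was 73.8, 5.37, 54.7, 11.4, 28.3 and 218 CPM in MPNST 1 to 6. The lowest, median and highest values were 221, 249.8 and 309.7 CPM in neurofibroma and 286, 348 and 511 CPM in nerve. MPNST 2, 4 and 5 were the lowest, and MPNST 6 lay just under the lowest neurofibroma library. The order held when libraries were scaled by TMM factors, with 204 CPM in MPNST 6 beside 212 CPM in the lowest neurofibroma library. The log2 change was -1.94 against neurofibroma (SE 0.60, edgeR adjusted p = 0.0220) and -2.47 against nerve (SE 0.63, adjusted p = 0.00755). Without MPNST 6 these were -2.72 (SE 0.47) and -3.24 (SE 0.51), and the call against each group was kept in every fit that left out a single library. In the first 9 columns of the table the changes were -2.94 and -3.54, both called, and in the last 9, which hold MPNST 6, -1.36 and -1.83, neither called. The summed sensory neuron markers were likewise lower in all 6 MPNST libraries (52.2 to 5979 CPM) than in neurofibroma (12715 to 16716 CPM) and nerve (11331 to 19910 CPM), and their part in the fall of Peg3 was not tested. The Peg3 promoter is shown because it alone, of the promoters matched here, holds the letters GGGGCCCC, a box bound by the PLAGL1 protein, in capitals. It lies at chr7:6730370-6730669 on the - strand (RefSeq, GRCm38.p6).
Peg3 promoter: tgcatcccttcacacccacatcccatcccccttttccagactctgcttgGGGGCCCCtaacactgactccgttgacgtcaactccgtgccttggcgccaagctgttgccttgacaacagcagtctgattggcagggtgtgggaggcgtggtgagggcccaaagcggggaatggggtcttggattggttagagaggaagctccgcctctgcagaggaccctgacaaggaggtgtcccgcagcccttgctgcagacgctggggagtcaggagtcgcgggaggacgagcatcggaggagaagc

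Plagl1, Ndn and Zdbf2 were each low in 4 or 5 MPNST libraries and very high in MPNST 6. Plagl1 (Zac1) is a zinc finger transcription factor that halts the cell cycle and acts on other imprinted genes, Ndn encodes necdin, a MAGE family protein of postmitotic neurons, and Zdbf2 is a paternally expressed gene linked to feeding and growth after birth in mice. Plagl1 was 10.3, 5.67, 44.1, 5.45, 2.74 and 1064 CPM in MPNST 1 to 6. Its lowest, median and highest values were 39.0, 49.5 and 52.7 CPM in neurofibroma and 42.3, 67.1 and 78.8 CPM in nerve. MPNST 1, 2, 4 and 5 lay below both other groups, MPNST 3 within the range of both and MPNST 6 above both. MPNST 6 held 94.0% of the Plagl1 CPM of its group, 24.1 times the next highest library.

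Ndn was 24.6, 2.41, 30.5, 30.7, 13.6 and 318 CPM in MPNST 1 to 6. The lowest, median and highest values of Ndn were 40.4, 58.4 and 86.9 CPM in neurofibroma and 50.6, 96.2 and 234 CPM in nerve, the last of these in nerve 6. MPNST 1 to 5 lay below every neurofibroma and nerve library and MPNST 6 above every one. Zdbf2 was 0.342, 0.0423, 0.913, 0.172, 0.072 and 217 CPM in MPNST 1 to 6, which is 1 to 13 counts in the first 5 and 4151 in the last. Zdbf2 ran from 1.98 through a median of 3.13 to 3.99 CPM in neurofibroma and from 5.06 through 6.08 to 38.8 CPM in nerve. MPNST 1 to 5 again lay below every other library, and MPNST 6 was 238 times the next highest of its group.

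With all libraries, none of these 3 genes was called between MPNST and another group by edgeR. The log2 changes were 1.93 for Plagl1 (SE 1.24, adjusted p = 0.225), 0.19 for Ndn (SE 0.76, adjusted p = 0.859) and 3.45 for Zdbf2 (SE 1.74, adjusted p = 0.128) against neurofibroma. Against nerve they were 1.47 for Plagl1 (SE 1.22, adjusted p = 0.342), -0.72 for Ndn (SE 0.80, adjusted p = 0.479) and 1.60 for Zdbf2 (SE 1.68, adjusted p = 0.451). Without MPNST 6 the direction of Plagl1 and Zdbf2 turned in both comparisons, and that of Ndn against neurofibroma. Zdbf2 was then called lower against neurofibroma (-3.10, SE 0.60, adjusted p = 0.00126) and against nerve (-4.94, SE 0.90, adjusted p = 0.000730). Ndn was called lower against neurofibroma (-1.42, SE 0.38, adjusted p = 0.00860) and against nerve (-2.32, SE 0.47, adjusted p = 0.00140). Plagl1 was called lower against nerve (-1.85, SE 0.65, adjusted p = 0.0297), and its value against neurofibroma was -1.40 (SE 0.63, adjusted p = 0.0805).

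In MPNST 6 these genes were high beside a set of sympathoadrenal transcripts. Th, the rate-limiting enzyme of catecholamine synthesis, was 1736 CPM in MPNST 6, at most 0.772 CPM in MPNST 1 to 5, 4.19 to 10.4 CPM in neurofibroma and 4.60 to 171 CPM in nerve. Of the 12 sympathoadrenal markers none was at 0 in MPNST 6, and of 8 adrenal cortex markers 5 were at 0, the sum of the 8 being 5.03 CPM. Cell cycle markers (10 genes) summed to 2183 CPM in MPNST 6, against 52.1 to 737 CPM in the other MPNST libraries. Nerve 6, the nerve library with most Dlk1, Ndn and Zdbf2, held 770 CPM of the sympathoadrenal markers, against 299 to 401 CPM in the other nerve libraries, and 120 CPM of 15 pituitary and hypothalamus markers, against 7.87 to 74.9 CPM. The part of such cells in the levels of these genes was not tested.

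The promoters of Plagl1 and Zdbf2 are shown because these genes, with Dlk1, had the largest excess in MPNST 6 over the next MPNST library (24.1 and 238 times, beside 84.8 times for Dlk1). Capitals mark the letters TGCCGC or, on the other strand, GCGGCA, a motif bound when methylated by ZFP57, the protein that keeps imprints in the embryo. The Plagl1 window lies at chr10:13090582-13090881 and the first of a pair of Zdbf2 windows at chr1:63200108-63200407, both on the + strand (RefSeq, GRCm38.p6). The other Zdbf2 window, at chr1:63273019-63273318, holds no ZFP57 motif.
Plagl1 promoter: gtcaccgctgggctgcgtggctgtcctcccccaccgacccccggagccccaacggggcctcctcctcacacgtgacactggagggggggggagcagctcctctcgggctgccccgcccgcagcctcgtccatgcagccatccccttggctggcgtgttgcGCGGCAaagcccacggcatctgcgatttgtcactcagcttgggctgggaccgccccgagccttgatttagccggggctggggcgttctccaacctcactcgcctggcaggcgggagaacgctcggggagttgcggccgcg
Zdbf2 promoter: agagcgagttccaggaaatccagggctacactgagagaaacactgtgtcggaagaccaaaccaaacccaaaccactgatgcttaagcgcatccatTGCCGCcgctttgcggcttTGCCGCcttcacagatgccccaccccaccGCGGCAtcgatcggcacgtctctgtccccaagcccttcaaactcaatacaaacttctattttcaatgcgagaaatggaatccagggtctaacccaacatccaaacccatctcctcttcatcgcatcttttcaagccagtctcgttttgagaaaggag
RefSeq promoters were matched for 8 of the 10 genes, with 13 windows in all. H19 and Peg10 are named only. The ZFP57 motif was found in 6 of the 13 windows, namely 1 each of Zdbf2, Plagl1, Grb10 and Meg3 and a pair of overlapping windows of Mest, and in 11.6% of all 32851 promoters of the same length. The GGGGCCCC box was found in 1 of the 13 and in 1.08% of all promoters. The windows of the 10 genes had a median of 13 CpG dinucleotides, beside 7 over all promoters, and a median GC content of 59.3%, beside 52.7%. Such matches describe letters in a window and not binding.

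Grb10, an adaptor protein that inhibits the insulin and IGF1 receptors, was high in MPNST 1, 3, 4 and 5 and low in MPNST 2 and 6. Grb10 was 88.2, 10.8, 112, 99.8, 139 and 20.8 CPM in MPNST 1 to 6. Its lowest, median and highest values were 37.7, 43.2 and 49.6 CPM in neurofibroma and 37.9, 43.7 and 84.1 CPM in nerve. MPNST 1, 3, 4 and 5 lay above every neurofibroma and nerve library and MPNST 2 and 6 below every one, and MPNST 2 stayed below at 28.3 CPM after TMM scaling. The log2 change was 1.003 against neurofibroma (SE 0.41, adjusted p = 0.0655) and 0.74 against nerve (SE 0.43, adjusted p = 0.177), and neither was called. Without MPNST 6 it was called higher, with 1.21 against neurofibroma (SE 0.30, adjusted p = 0.00513) and 0.94 against nerve (SE 0.34, adjusted p = 0.0315; edgeR). A fit of all 18 libraries called it higher against neurofibroma with all kept (0.92, SE 0.36, adjusted p = 0.0434). Without MPNST 2, Grb10 was also called higher against neurofibroma.

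With all libraries kept, Mest and Peg10 were spread over a wide range in MPNST and were not called in either comparison with it. Without MPNST 2, Peg10 was called higher against neurofibroma by edgeR, where 4376 of all 16903 tested genes were called higher and 3097 lower. Mest, a paternally expressed protein of the hydrolase fold, was 18.6, 1.52, 200.3, 58.6, 50.8 and 194 CPM in MPNST 1 to 6. Its lowest, median and highest values were 49.5, 54.2 and 62.9 CPM in neurofibroma and 46.4, 64.5 and 77.3 CPM in nerve. MPNST 3 and 6 lay above and MPNST 1 and 2 below both other groups. Peg10, a retrotransposon-derived gene needed for the mouse placenta, was 4.05, 0.338, 15.7, 84.4, 5.76 and 168 CPM in MPNST 1 to 6. Its lowest, median and highest values were 10.5, 12.1 and 14.2 CPM in neurofibroma and 7.52, 13.3 and 44.4 CPM in nerve. MPNST 4 and 6 lay above every neurofibroma and nerve library, so that Peg10 had a high MPNST library apart from MPNST 6. The log2 changes were 0.79 for Mest (SE 0.70, adjusted p = 0.377) and 1.87 for Peg10 (SE 0.94, adjusted p = 0.127) against neurofibroma, and 0.52 for Mest (SE 0.70, adjusted p = 0.565) and 1.38 for Peg10 (SE 0.98, adjusted p = 0.267) against nerve. Mest overlaps Copg2 and Zdbf2 overlaps Gpr1, and how reads of overlapping genes were divided is not given in the sources used here.

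Leaving out MPNST 6 added 4 calls against neurofibroma and 5 against nerve. Without it, 7 of the 10 were called against neurofibroma, 3 higher (H19, Dlk1 and Grb10) and 4 lower (Meg3, Peg3, Ndn and Zdbf2), where 54.3% of all tested genes were called. Against nerve 7 of the 10 were called, 2 higher (H19 and Grb10) and 5 lower (Meg3, Peg3, Plagl1, Ndn and Zdbf2), where 56.6% of all tested genes were called. With MPNST 2, 3 and 6 all left out, Plagl1 was called lower too, against neurofibroma (-3.02, SE 0.38, adjusted p = 0.000108) and against nerve (-3.48, SE 0.43, adjusted p = 0.000104), and Dlk1 was called against neither. Limma-voom with quality weights, which gives deviating libraries less weight, put Peg10, Mest, Plagl1, Ndn and Zdbf2 below neurofibroma with all libraries kept (-0.60, -0.50, -2.30, -1.33 and -3.25).

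**Figure D3:**
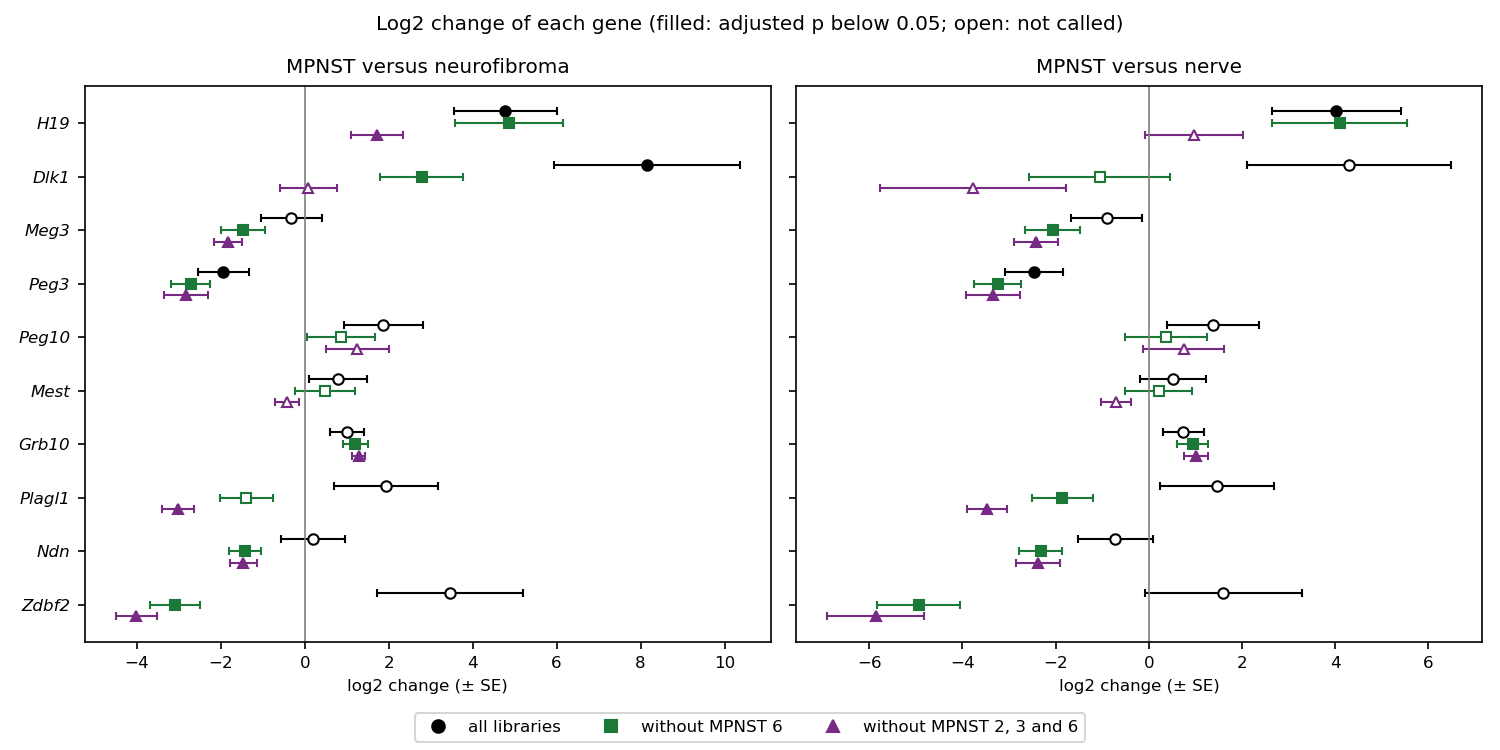
Log2 change (x axis, ± SE) of each imprinted growth gene for MPNST versus neurofibroma (left) and MPNST versus nerve (right), with all libraries, without MPNST 6 and without MPNST 2, 3 and 6; filled symbols had an edgeR adjusted p below 0.05. Zdbf2 against neurofibroma is at 3.45 with all libraries and at -3.10 without MPNST 6, while Peg3 stays negative in all 6 fits.

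Between neurofibroma and nerve, both taken from the trigeminal nerve, 3 of the imprinted growth genes were called lower and none higher. Peg3, Plagl1 and Zdbf2 fell in neurofibroma, which is 3 of the 9 tested, where 13.9% of 16464 tested genes were called (7.94% higher and 6.00% lower). Dlk1 did not pass the filter on low counts. The median log2 change of the 9 was -0.51, beside -0.02 over all tested genes. Zdbf2 fell by 1.86 on the log2 scale (SE 0.51, edgeR adjusted p = 0.0324), and all 6 neurofibroma libraries lay below every nerve library. Peg3 fell by 0.51 (SE 0.15, adjusted p = 0.0425), with 5 of 6 neurofibroma libraries below every nerve library in CPM. Scaled by TMM factors, neurofibroma 3 (267 CPM) and neurofibroma 5 (296 CPM) lay above the lowest nerve library (263 CPM in nerve 3). Plagl1 fell by 0.44 (SE 0.13, adjusted p = 0.0439), and every nerve library other than nerve 6, at 42.3 CPM, lay above every neurofibroma library.

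The other 6 tested genes were not called between neurofibroma and nerve. Ndn had a log2 change of -0.90 (SE 0.30, adjusted p = 0.0642) and Meg3 of -0.57 (SE 0.28, adjusted p = 0.179). H19 had -0.74 (SE 0.85, adjusted p = 0.581), and 0.90 without nerve 3, the nerve library with most muscle transcripts. Grb10, Mest and Peg10 had -0.26, -0.26 and -0.50, with adjusted p of 0.327, 0.151 and 0.349. Leaving out nerve 6 narrowed the change of Zdbf2 to -0.93 (SE 0.18, adjusted p = 0.00513), that of Peg3 was -0.48 (adjusted p = 0.0472) and that of Plagl1 -0.54 (adjusted p = 0.00263). Mest was then called too (-0.35, SE 0.09, adjusted p = 0.0186), so that 4 of 9 were called beside 23.0% of all tested genes. These calls lay near the threshold: with 1 library left out at a time, 0 to 4 of the 9 genes were called. Within the first 9 and the last 9 columns of the table none of the 9 genes was called by edgeR (3002 and 2796 of all genes had an unadjusted p below 0.05), with changes of -0.54 and -0.52 for Peg3, -0.52 and -0.39 for Plagl1 and -0.72 and -2.66 for Zdbf2. Sensory neuron markers summed to 12715 to 16716 CPM in neurofibroma and 11331 to 19910 CPM in nerve, and 1 of the 22 was called lower in neurofibroma and none higher. Schwann lineage markers were higher in neurofibroma for 6 of 14, and the part of either list in the falls was not tested.

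**Figure D4:**
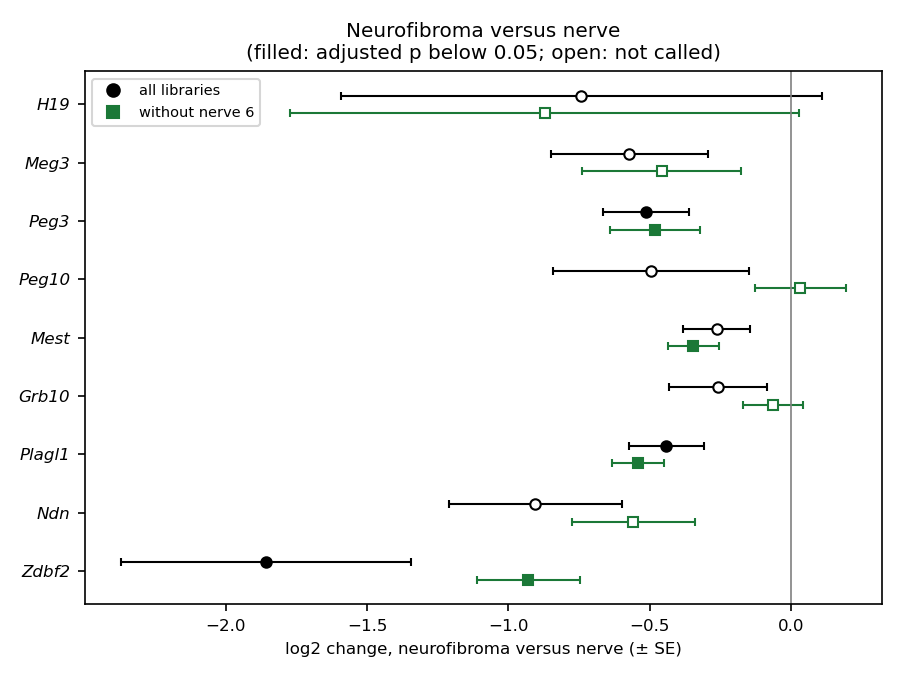
Log2 change (x axis, ± SE) of 9 imprinted growth genes for neurofibroma versus nerve, with all libraries and without nerve 6; filled symbols had an edgeR adjusted p below 0.05 and Dlk1 was not tested. Zdbf2 is at -1.86 with all libraries and at -0.93 without nerve 6, and no gene is called higher.

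The genes of the same clusters were read next, from a list of 30, of which 29 were found. Of 17 tested between MPNST and neurofibroma, 1 was called higher (Ddc) and 3 lower (Phactr2, Snrpn and Adam23), where 42.0% of all genes were called, and the median log2 change was 0.03. Of 18 tested between MPNST and nerve, none was called higher and 4 were called lower (Ppp1r9a, Phactr2, Snrpn and Adam23), where 18.4% of all genes were called lower and 46.0% in all, with a median of -0.44. Snrpn, a splicing protein gene of the Ndn cluster that neurons express strongly, was 4.34 to 134 CPM in MPNST, against 453 to 578 CPM in neurofibroma and 547 to 695 CPM in nerve, with no overlap. Its log2 change was -4.07 against neurofibroma (SE 0.85, adjusted p = 0.00297) and -4.36 against nerve (SE 0.86, adjusted p = 0.00189; edgeR). Adam23, a neuronal cell adhesion protein beside Zdbf2, was 3.51 to 206 CPM in MPNST, against 401 to 486 CPM in neurofibroma and 342 to 701 CPM in nerve. It fell by 2.47 on the log2 scale against neurofibroma (SE 0.61, adjusted p = 0.00725) and by 2.78 against nerve (SE 0.64, adjusted p = 0.00442). Ddc, the enzyme that makes dopamine and the neighbour of Grb10, was 622 CPM in MPNST 6 and at most 1.22 CPM in MPNST 1 to 5, against 1.49 to 2.86 CPM in neurofibroma and 1.26 to 101 CPM in nerve. It was called higher against neurofibroma (5.49, SE 2.04, adjusted p = 0.0471) although MPNST 1 to 5 lay below every neurofibroma library, and MPNST 6 was a library in which Grb10 was low.

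Igf2, the fetal growth factor that shares a cluster with H19, was not called in any comparison. Igf2 was 14.3, 1.86, 44.8, 2.58, 6.63 and 306 CPM in MPNST 1 to 6, 8.31 to 39.7 CPM in neurofibroma and 6.35 to 68.7 CPM in nerve 1 to 5, and 648 CPM in nerve 6. Its highest libraries in MPNST and nerve were MPNST 6 and nerve 6, which were not the highest of their groups for H19. The highest H19 libraries there, MPNST 3 (44.8 CPM of Igf2) and nerve 3 (68.7 CPM), were the next highest for Igf2. Neurofibroma 1 was the highest of its group for both genes. Magel2, of the Ndn cluster, was 22.6 CPM in MPNST 6, 7.27 CPM in nerve 6 and at most 0.147 CPM elsewhere. Usp29, of the Peg3 cluster, was 52.6 CPM in MPNST 6 and at most 0.492 CPM in MPNST 1 to 5, against 3.36 to 7.13 CPM in neurofibroma and 5.34 to 47.7 CPM in nerve. Between neurofibroma and nerve, Sgce, the neighbour of Peg10, rose (0.66, SE 0.16, adjusted p = 0.0173) and Rian fell by 0.44 on the log2 scale (SE 0.11, adjusted p = 0.0193), out of 17 tested. The remaining tested neighbours averaging at least 5 CPM in a group were Mirg, Begain, Zim1, Copg2, Cobl, Ltv1 and Ube3a, none of them called in any comparison.

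**Figure D5:**
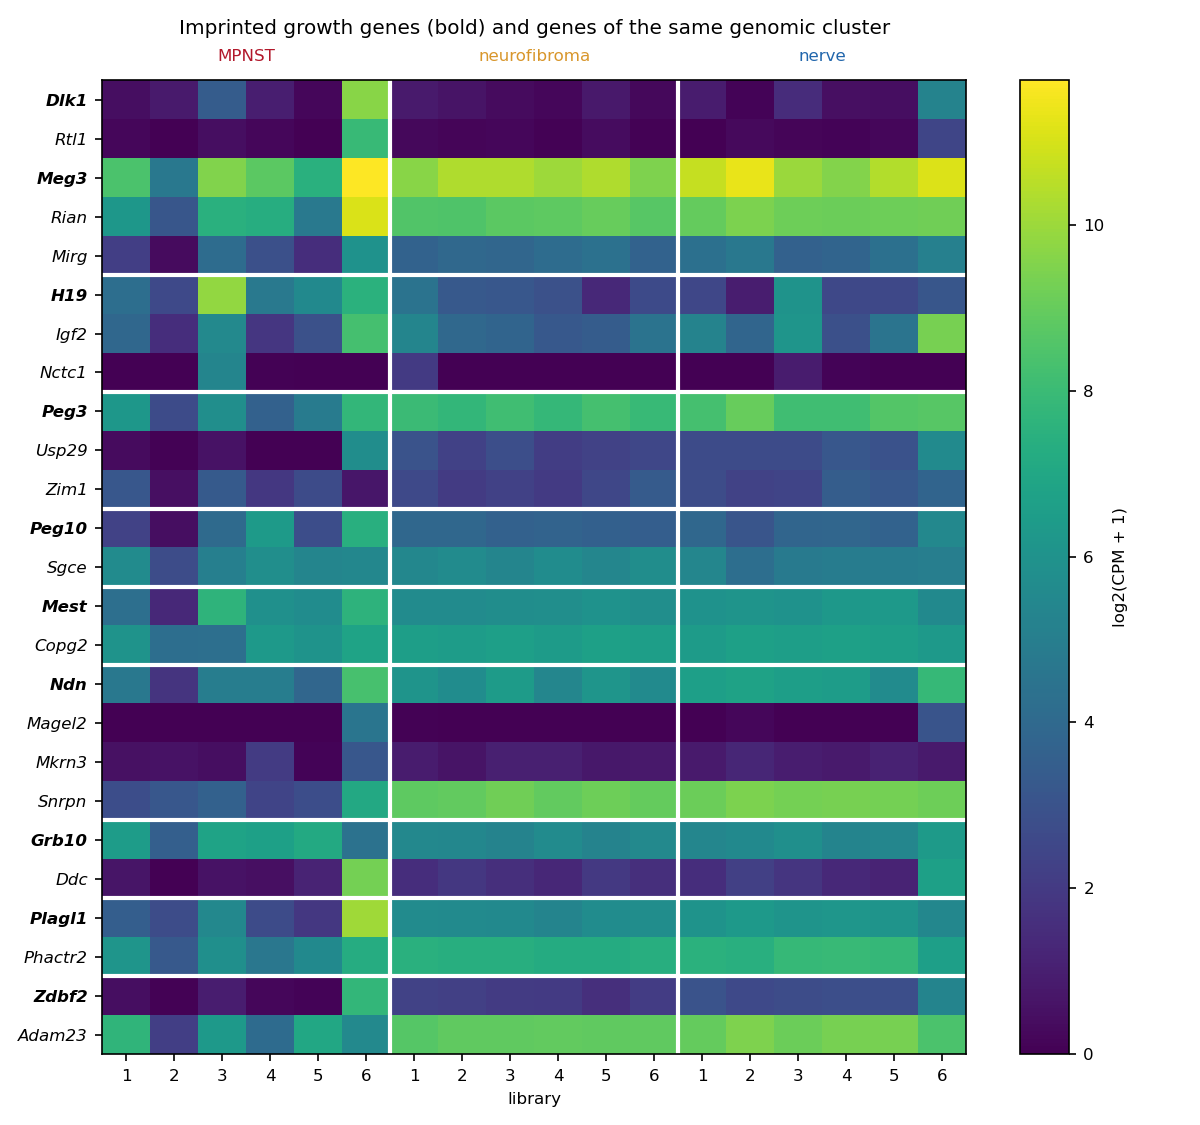
Expression as log2(CPM + 1) of the imprinted growth genes (bold) and genes of their clusters, with libraries in columns and white lines between groups and clusters. MPNST 6 is bright for Dlk1, Rtl1 (242 CPM), Meg3, Rian (2145 CPM), Ddc (622 CPM), Plagl1 and Zdbf2, and Nctc1 is visible in MPNST 3 (39.3 CPM).

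Imprinted genes outside these clusters were called in both directions, in total shares near those of all genes. More of them were called lower than higher, unlike over all genes. Of 32 tested between MPNST and neurofibroma, 5 were called higher and 8 lower, with a median log2 change of 0.08. Of all genes, 42.0% were called there (25.3% higher and 16.8% lower). Between MPNST and nerve again 5 were called higher and 8 lower, with a median of -0.10. Of all genes, 46.0% were called there (27.6% higher and 18.4% lower). Over all tested genes the median was 0.22 in both comparisons. Igf2r, the receptor that clears IGF2, rose in MPNST to 58.3 to 417 CPM, against 37.9 to 45.0 CPM in neurofibroma and 36.5 to 55.7 CPM in nerve. All 6 MPNST libraries lay above the others, and the log2 change was 2.44 against neurofibroma (SE 0.38, adjusted p = 0.000555) and 2.34 against nerve (SE 0.39, adjusted p = 0.000692; edgeR). Airn, the noncoding RNA antisense to Igf2r, was called higher against neurofibroma (1.92, SE 0.37), and its reads cannot be told from those of Igf2r where strand was not used in counting. Tspan32, a tetraspanin of blood cells, was called higher against neurofibroma (4.15) and nerve (5.26), and Commd1 against nerve (0.86). The lowest p-values among the falls were those of Slc22a2, Zrsr1 and Trappc9, with log2 changes of -5.12, -1.35 and -1.45 against neurofibroma and of -4.67, -1.46 and -1.64 against nerve. Cdkn1c, an inhibitor of cyclin-dependent kinases, and Gnas, the stimulatory G protein subunit, were not called in any comparison. Between neurofibroma and nerve, 1 of 32 was called higher (Dcn, 1.21) and 3 lower (Peg13, Ampd3 and Impact, -0.39, -0.33 and -0.61). Of all genes, 13.9% were called there (7.94% higher and 6.00% lower).

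A published network of imprinted genes that vary together in mouse tissues was represented by 16 genes, 8 of them among the 10 described here. Of 15 tested, 3 were called higher and 1 lower between MPNST and neurofibroma (median 0.79), where 42.0% of all genes were called. Between MPNST and nerve, 2 were called higher and 1 lower (median 0.52), where 46.0% of all genes were called. Both counts lie below the all-gene share, and the median over all tested genes was 0.22 in both comparisons. Between neurofibroma and nerve 2 of 14 were called higher, Dcn and Sgce, and 2 lower, Peg3 and Plagl1 (median -0.41), beside 13.9% of all genes called and a median of -0.02.

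The genes with the most similar course over the 18 libraries were sought for each of the 10 among 13111 candidates, by the root mean square difference of standardised log2 values, where 0 is an identical course. Among the closest matches were Prkce and Kcna4 for Peg3 (0.194 and 0.195), and Th, Celf5 and Pak5 for Zdbf2 (0.221, 0.242 and 0.248). Meg3 was closest to Mirg (0.246), Myh10 (0.336) and Rian (0.339), the first and last of which belong to its own cluster. Ndn was closest to Scn2a (0.257), Adgrl1 (0.337) and Lrrc73 (0.348), and Plagl1 to Satb1 (0.290), Bdkrb2 (0.337) and Sac3d1 (0.348). Grb10 was closest to Ehbp1l1 (0.313), Sphk1 (0.451) and Coq10b (0.453), and Dlk1 to Chchd4 (0.319), Prelid3b (0.363) and Syt17 (0.369). Mest was closest to Kalrn (0.336), Hsf2 (0.377) and Mtrex (0.397), Peg10 to Armcx4 (0.394), Nkain1 (0.403) and Pds5b (0.455), and H19 to Srf (0.5002), Abcc9 (0.539) and Nampt (0.544). None of the 10 was among the 3 nearest of another. A gene high in MPNST 6 alone lies near any other such gene by construction.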

How the data were processed

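RNA was extracted with the Qiagen RNeasy Plus Mini kit and made into poly(A) libraries with the KAPA Stranded mRNAseq kit, per the labels' protocols. The authors deposited a gene-level table of estimated counts, made with Salmon 1.4.0, and name FastQC, DESeq2 and the build GRCm39, per the submitters' processing notes. The sources used here do not give the annotation release, the transcript summing or the counting strand. Estimated counts were rounded to whole numbers and totalled 13886399 to 23652959 per library. Counting error alone is 31.6% at 10 counts, 10% at 100 and 3.2% at 1000. No pair of libraries of a group was alike within counting noise.

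Printed levels (CPM) are counts scaled to a common library total, without TMM factors. Each pair of groups (6 and 6 samples, grouped by the labels' genotype and tissue) was fitted with edgeR 4.0.16 in R 4.3.3, using filterByExpr, TMM factors and the quasi-likelihood test, with Benjamini-Hochberg adjustment over all genes tested and calls at an adjusted p below 0.05. The SE is the log2 change divided by the root of F. The script was tested on simulated counts. DESeq2 1.42.0, limma 3.58.1, other scalings, filters and thresholds, and fits without libraries were alternatives, and the split by columns was added after the data had been seen.

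Named genes were the 10, their tested cluster neighbours averaging at least 5 CPM in a group, up to 3 other imprinted genes per direction by smallest p with Igf2, Cdkn1c, Igf2r and Gnas, and the 3 nearest profiles, except for genes that are not reported here. Rtl1, Nctc1, Magel2 and the marker genes were named after their values had been seen. The members and lists were chosen with earlier results of these data known, and the meninges and choroid plexus list after the libraries were seen. Promoters are RefSeq's for GRCm38.p6, from 250 bases before to 50 after the start, and no coordinate was converted between builds. Python 3.11.15, numpy 2.4.6, pandas 2.3.3 and matplotlib 3.10.9 were used.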

Additional observations from a re-analysis of the deposited data

Results flagged for a closer look

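In 13 of the 30 sets of 6 libraries (10 genes in 3 groups), the highest library stood apart from the rest by more than Dixon's critical value allows. The rate of about 1 in 20 behind that value assumes normal values and independent sets. These 30 sets of CPM share the same 18 libraries, so the count is a description and not a test against chance. MPNST 6 accounted for Dlk1 (810 CPM), Meg3 (3435 CPM), Peg3 (218 CPM), Plagl1 (1064 CPM), Ndn (318 CPM) and Zdbf2 (217 CPM). H19 stood apart in MPNST 3 (908 CPM), in neurofibroma 1 (21.3 CPM) and in nerve 3 (65.5 CPM), the libraries with most skeletal muscle transcripts in their groups. Nerve 6 accounted for Dlk1 (37.1 CPM), Peg10 (44.4 CPM), Ndn (234 CPM) and Zdbf2 (38.8 CPM).

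Leaving these libraries out lowered the means. Zdbf2 averaged 0.308 ± 0.358 CPM in MPNST without MPNST 6 (SD, n = 5), beside 36.5 ± 88.7 CPM with it (n = 6), and 5.98 ± 0.698 CPM in nerve without nerve 6, beside a highest value of 38.8 CPM in nerve 6. Plagl1 averaged 13.7 ± 17.2 CPM in MPNST without MPNST 6, beside 189 ± 429 CPM with it. H19 averaged 55.1 ± 71.4 CPM in MPNST without MPNST 3, 6.04 ± 2.84 CPM in neurofibroma without neurofibroma 1 and 4.62 ± 2.48 CPM in nerve without nerve 3.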

How the results depend on the processing

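Among refits of single genes under all alternatives, 631 kept direction and call, 34 gained a call, 66 lost it and 50 changed direction. The cause was not tested.

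With 1 library left out, 3 to 7 of the genes were called for MPNST versus neurofibroma and 1 to 7 for MPNST versus nerve. The 7 came without MPNST 6, where 54.3% and 56.6% of all genes were called. The fewest genes were called without neurofibroma 5 (3491 higher and 2408 lower of 16928) and without nerve 5 (3828 and 2680 of 16861). For neurofibroma versus nerve 0 to 4 of the genes were called, where 1147 to 3817 of all genes were called. Directions changed over these ranges. Against neurofibroma, MPNST values ran from -1.40 to 2.26 (Plagl1), -1.42 to 0.50 (Ndn) and -3.10 to 3.82 (Zdbf2). Against nerve they ran from -1.05 to 7.48 (Dlk1), -0.047 to 0.74 (Mest), -1.85 to 1.78 (Plagl1) and -4.94 to 2.49 (Zdbf2). Neurofibroma versus nerve gave -1.27 to 0.90 (H19) and -0.66 to 0.0323 (Peg10).

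For MPNST versus neurofibroma, limma-voom called 7 (H19, Meg3, Peg3, Grb10, Plagl1, Ndn and Zdbf2), where 4707 of all 16537 genes were called higher and 5040 lower. The fit without MPNST 2, 3 and 6 called the same 7, and 11247 of 17900 genes in all. Without MPNST 2 and 6, 7 were called (Dlk1 in place of Plagl1), and 6 without neurofibroma 1 as well (neither Dlk1 nor Plagl1). Over all genes, the former fit called 5306 higher and 4928 lower of 17280, and the latter 5205 and 4308 of 17086. An adjusted p below 0.01 left 1 (H19) among 4063 genes and the last 9 columns 1 (H19) among 1473. The column covariate left 1 (Peg3), where 3791 of all 16537 genes were called higher and 2841 lower. The first 9 columns called 4375 genes. Directions that turned, called or not, were Peg10 -0.60, Mest -0.50, Plagl1 -2.30, Ndn -1.33 and Zdbf2 -3.25 in limma-voom; Plagl1 -1.49, Ndn -1.25 and Zdbf2 -3.0045 without MPNST 2 and 6, and -1.35, -1.15 and -2.83 without neurofibroma 1 as well. They were Mest -0.42, Plagl1 -3.02, Ndn -1.46 and Zdbf2 -4.01 without MPNST 2, 3 and 6, Mest -0.95, Plagl1 -2.15, Ndn -1.74 and Zdbf2 -4.00 in the first 9 columns, Meg3 0.50 in the last 9 and Ndn -0.29 with the covariate.

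For MPNST versus nerve, limma-voom and the fit without MPNST 2, 3 and 6 each called 6 (Meg3, Peg3, Grb10, Plagl1, Ndn and Zdbf2). The fit without MPNST 2 and 6 also called 6 (H19 in place of Plagl1). Of all 16384 genes, limma-voom called 5140 higher and 5242 lower. Without MPNST 2, 3 and 6 these were 5620 and 5498 of 17819, and without MPNST 2 and 6 they were 5650 and 4769 of 17166. The first 9 columns called 5 (Meg3, Peg3, Plagl1, Ndn and Zdbf2), where 2271 of all 17120 genes were called higher and 2836 lower. An adjusted p below 0.01 left 1 (Peg3) among 4633 genes and the last 9 columns 1 (H19) among 1136. The covariate left 1 (Peg3), where 4186 of all 16384 genes were called higher and 3117 lower. Directions that turned, called or not, were Peg10 -0.70, Mest -0.83, Plagl1 -2.79 and Zdbf2 -4.35 in limma-voom, and Dlk1 -0.97, Plagl1 -1.83 and Zdbf2 -4.77 without MPNST 2 and 6. They were Dlk1 -3.78, Mest -0.70, Plagl1 -3.48 and Zdbf2 -5.86 without MPNST 3 too, H19 -0.32, Mest -1.32, Plagl1 -2.79 and Zdbf2 -4.79 in the first 9 columns, Meg3 0.0149 in the last 9, and Mest -0.007, Plagl1 -0.0656 and Zdbf2 -1.003 with the covariate.

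For neurofibroma versus nerve, no filter gave 1 among 1438, a log2 change of at least 1 gave 1 among 442, DESeq2 called 3509 genes and limma-voom 4026. An adjusted p below 0.01 left 0 among 520, and 1 edgeR fit of all 18 samples gave 0 among 2 (1343 at an unadjusted p below 0.05). The first 9 columns gave 0 among 0 (3002 unadjusted; Peg10 0.22), the last 9 gave 0 among 5 (2796) and the covariate gave 0 (5003).

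DESeq2 gave no adjusted p for Dlk1, Plagl1, Ndn and Zdbf2 in either MPNST comparison, nor for H19 and Zdbf2 between neurofibroma and nerve. The reason was not tested. Plagl1 had 38 to 20309 counts and Ndn 57 to 6062 counts in MPNST, the highest of each in MPNST 6. Dlk1 at 2 to 31 counts in most libraries, and Zdbf2 at 1 to 13 counts in MPNST 1 to 5, are limited by counting error. No paired analysis was possible because the labels give no shared replicate numbers.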
